A study of Arabidopsis thaliana with 18 samples.

Results

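SIR encodes sulfite reductase and BGLU28 encodes a beta-glucosidase whose transcript is known to rise when plants run short of sulfur. Each was represented by 1 probe set, 250846_at for SIR (locus AT5G04590) and 267389_at for BGLU28 (AT2G44460), and together they make up 2 of the 13356 genes that a probe set of the ATH1 array named alone. The pair was chosen by signals of these same 18 arrays that were high with fenclorim, so their own signals, differences and folds are given as a description, without a test. Arabidopsis thaliana root cultures of the wild type accession Col-0, grown in darkness at 25 °C in Gamborg's B5 medium and 14 days old, received CMP, fenclorim, or acetone, the solvent. CMP is a code name that the labels do not spell out, and fenclorim is a safener, a compound that protects a crop from herbicide injury. The 6 groups were CMP, fenclorim and acetone at 4 h, and the same treatments at 24 h, with 3 arrays each and 18 in all. The labels give no dose and no mutant or transgene, and they do not state whether replicates were separate cultures, so every error and p-value below measures a spread between arrays that may be technical.

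Plants take up sulfate, activate it with ATP sulfurylase, reduce it to sulfite with APS reductase and then reduce the sulfite to sulfide. Sulfite reductase carries out that last reduction in plastids, with electrons from ferredoxin and with siroheme as a cofactor, and the sulfide is built into cysteine, from which methionine and glutathione are made. Glutathione is the molecule that glutathione transferases attach to many foreign chemicals, herbicides and safeners among them. Beta-glucosidases of glycoside hydrolase family 1 cut glucose from plant glucosides, and some of them act on glucosinolates, the sulfur-rich defence compounds of the cabbage order. BGLU28 has been linked to the breakdown of glucosinolates under sulfur shortage.

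All signals are MAS5 values on the authors' scaling, on which the trimmed mean of each array was 100, and differences are of mean log2 signal between groups of 3 arrays, ± SE from limma. Each SE rests on a spread pooled over all 6 groups, not on the spread of the groups compared alone. In bulk RNA of this kind, fewer cells of a type and less RNA per cell cannot be told apart. The median signal per array was 27.8 to 35.0 with CMP, 27.1 to 31.5 with fenclorim and 35.2 to 40.8 with acetone, so a level taken against the array's own median sits higher in the treated arrays than the deposited signal shows. The defining root gene that could be named, PYK10, a beta-glucosidase of root ER bodies, had signals of 2403 to 4323 with CMP, 3854 to 4660 with fenclorim and 2202 to 3458 with acetone. Of 5 planned root hair markers 2 were named. EXPA18 had 6.06 to 17.0 with CMP, 0.856 to 16.6 with fenclorim and 21.3 to 67.5 with acetone, while EXPA7, too dim to be tested, had 0.803 to 9.96, 0.497 to 12.0 and 2.20 to 29.7 in the same order. The guard cell gene FMA, 1 of 8 planned shoot markers, had 14.4 to 29.5 with CMP, 6.87 to 15.5 with fenclorim and 11.0 to 28.6 with acetone. EXPA18 was above the 40th percentile of its array, the level for testing, in 3 acetone arrays at 4 h and 2 at 24 h. It was above that level in 1 fenclorim array at 24 h and in no other treated array, so its treated signals are near the floor. FMA was above it in no fenclorim array. What part the lower EXPA18 signal of the CMP and fenclorim arrays has in the results below was not tested.

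Of the fenclorim arrays, 2 resembled the other time more than their own group. Over the tested probe sets, fenclorim 24 h replicate 2 correlated at 0.901 with the mean of its own group and at 0.937 with the mean of the fenclorim 4 h arrays. Fenclorim 4 h replicate 3 correlated at 0.937 with its own group and at 0.947 with the fenclorim 24 h arrays. The other fenclorim arrays were closer to their own group, at 0.944 to 0.973, as were all 6 CMP arrays. Replicate 1 of acetone was closer to the other time too, at 0.969 against 0.948 at 4 h and 0.968 against 0.963 at 24 h. The mean of the own group held 2 arrays and that of the other time 3, which favours the other time. Where leaving out those fenclorim arrays made or ended a call of a listed gene against acetone, the value without them is given too. It is also given for some, not all, described values that moved by over 1.5 times.

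**Figure D1:**
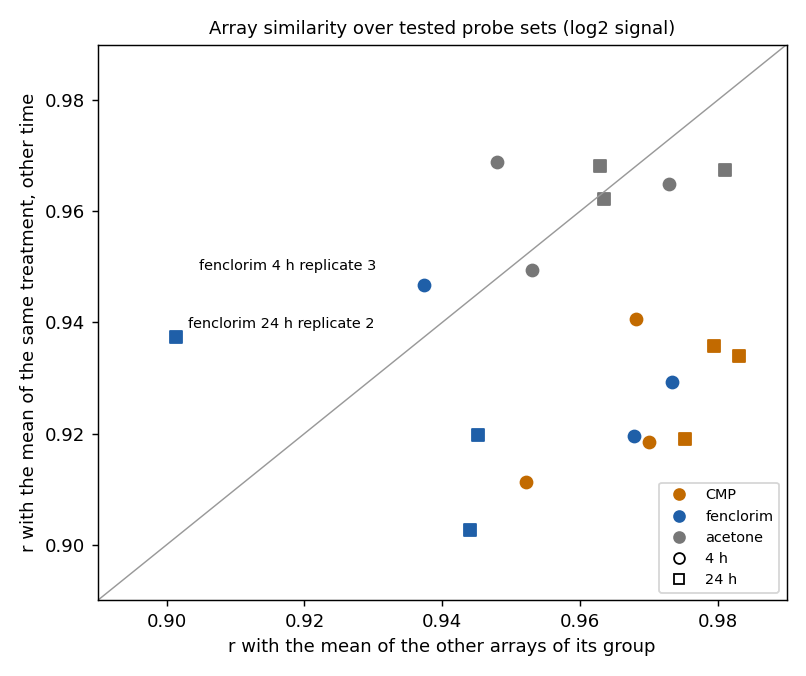
Similarity of the 18 arrays, with Pearson's r of log2 signal with the mean of the other 2 arrays of the same group on the horizontal axis and r with the mean of the 3 arrays of the same treatment at the other time on the vertical axis. Colours stand for CMP, fenclorim and acetone, circles for 4 h and squares for 24 h. Points above the diagonal line resemble the other time more, among them fenclorim 24 h replicate 2 (0.901 and 0.937) and fenclorim 4 h replicate 3 (0.937 and 0.947).

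SIR was a bright probe set in every culture and was brighter still in all 6 fenclorim arrays. At 4 h its signal was 478, 473 and 409 in CMP replicates 1 to 3, 1580, 1685 and 1404 in fenclorim replicates, and 581, 484 and 540 in acetone replicates. At 24 h it was 375, 444 and 391 with CMP, 1461, 1546 and 1361 with fenclorim, and 587, 436 and 528 with acetone. The fenclorim arrays stood clear of all others at both times, and the CMP arrays lay below or among the acetone arrays. Group means were 453 ± 38.8 for CMP, 1556 ± 142 for fenclorim and 535 ± 48.9 for acetone at 4 h (SD, n = 3). At 24 h the means were 403 ± 36.3 for CMP, 1456 ± 92.5 for fenclorim and 517 ± 76.6 for acetone.

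Fenclorim minus acetone for SIR was 1.54 ± 0.14 at 4 h, a 2.91-fold higher signal, and 1.50 ± 0.14 at 24 h, a 2.83-fold higher signal. The 24 h difference minus the 4 h difference was -0.04 ± 0.19. With each array centred on its own median, the differences were 1.88 and 2.00, and quantile normalization gave 1.28 at 24 h. All fenclorim arrays lay above all acetone arrays at both times, which was also so for 17% of the tested probe sets at 4 h and 16.6% at 24 h.

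Mean SIR signals with CMP were below those with acetone on the deposited scaling. CMP minus acetone was -0.24 ± 0.14 at 4 h, with a 95% interval of -0.53 to 0.05 and all CMP arrays below all acetone arrays, as for 32% of the tested probe sets. With each array centred on its median that 4 h difference was 0.05, so the sign of CMP against acetone at 4 h depends on the scaling. At 24 h the difference was -0.35 ± 0.14, the arrays of the groups overlapped, and centring gave -0.08. CMP minus fenclorim was -1.78 ± 0.14 at 4 h and -1.85 ± 0.14 at 24 h, with all CMP arrays below all fenclorim arrays, as for 12.3% and 19.1% of the tested probe sets.

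Ordered by mean log2 signal, SIR was highest with fenclorim at 4 h (10.60), then fenclorim at 24 h (10.51), acetone at 4 h (9.06), acetone at 24 h (9.00), CMP at 4 h (8.82) and CMP at 24 h (8.65). The arrays of both fenclorim groups overlapped each other, and so did those of every neighbouring pair among the 4 other groups. The step between fenclorim at 24 h and acetone at 4 h had no overlap. Within fenclorim the signal varied by 1.24-fold over 6 arrays, and over the 12 other arrays it varied by 1.57-fold. The unusual fenclorim arrays did not stand apart here: 24 h replicate 2 had 1546 and 4 h replicate 3 had 1404, both inside the fenclorim range of 1361 to 1685. SIR lay at the 98.1 to 98.8 percentile of its array with fenclorim and at the 91.8 to 95.4 percentile in the other arrays.

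BGLU28 was dim in all CMP and acetone arrays and reached bright signals in some fenclorim arrays. Its signal at 4 h was 8.86, 3.74 and 16.5 in CMP replicates 1 to 3, 350, 400 and 115 in fenclorim replicates, and 6.13, 5.81 and 2.43 in acetone replicates. At 24 h the signals were 13.2, 11.1 and 8.99 with CMP, 18.8, 870 and 37.3 with fenclorim, and 7.33, 5.52 and 5.86 with acetone. Again every fenclorim array lay above every other array, but here by a small margin at 24 h, where 870 in replicate 2 stood far above 18.8 and 37.3. Mean signals were 9.68 ± 6.40 with CMP, 288 ± 153 with fenclorim and 4.79 ± 2.05 with acetone at 4 h (SD, n = 3). At 24 h they were 11.1 ± 2.09 with CMP, 309 ± 486 with fenclorim and 6.24 ± 0.958 with acetone, and the fenclorim SD exceeded its mean.

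Testing needed a signal over the array's 40th percentile on 3 or more arrays, a level of 15.0 to 22.7 depending on the array. BGLU28 passed that level in the 6 fenclorim arrays and in none of the 12 others, so it entered the tested set through the group in which it is high. The CMP and acetone signals lie at the 15.6 to 38.4 percentile of their arrays, where MAS5 signals are uncertain, and the folds against them share that uncertainty. SIR passed the level in all 18 arrays.

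Fenclorim minus acetone for BGLU28 was 5.83 ± 0.98 at 4 h, or 57.0-fold, and 3.78 ± 0.98 at 24 h, or 13.7-fold. The SE of 0.98 pools all 6 groups, while at 24 h the log2 SD was 2.95 with fenclorim and 0.21 with acetone. The 24 h difference is therefore less precise than that SE shows. The 24 h difference was 2.097 without fenclorim 24 h replicate 2. An offset of 16 added to every signal, which damps low values, gave 3.71 at 4 h and 2.41 at 24 h. The 24 h difference minus the 4 h difference was -2.06 ± 1.39, and it became -3.74 without fenclorim 24 h replicate 2 and -4.31 without that array and fenclorim 4 h replicate 3.

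CMP minus acetone for BGLU28 was 0.88 ± 0.98 at 4 h, where the arrays overlapped, and 0.82 ± 0.98 at 24 h, where all CMP arrays lay above all acetone arrays, as for 26.3% of the tested probe sets. At 24 h the log2 SD was 0.28 with CMP and 0.21 with acetone, so the pooled SE of 0.98 overstates the spread within those groups. With the offset both were 0.28. The CMP signals lay between 3.74 and 16.5, under the filter level of their arrays. CMP minus fenclorim was -4.95 ± 0.98 at 4 h and -2.95 ± 0.98 at 24 h, and the 24 h value was -1.28 without fenclorim 24 h replicate 2.

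In order of mean log2 signal, BGLU28 was highest with fenclorim at 4 h (7.98), then fenclorim at 24 h (6.41), CMP at 24 h (3.45), CMP at 4 h (3.03), acetone at 24 h (2.63) and acetone at 4 h (2.15). The 24 h fenclorim arrays spanned the 4 h fenclorim arrays on both sides. The lowest fenclorim array, 18.8 at 24 h, was above the highest CMP array, 16.5 at 4 h. Every other neighbouring pair of groups overlapped. Over the 6 fenclorim arrays BGLU28 varied by 46.3-fold, against 6.77-fold over the 12 others.

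**Figure D2:**
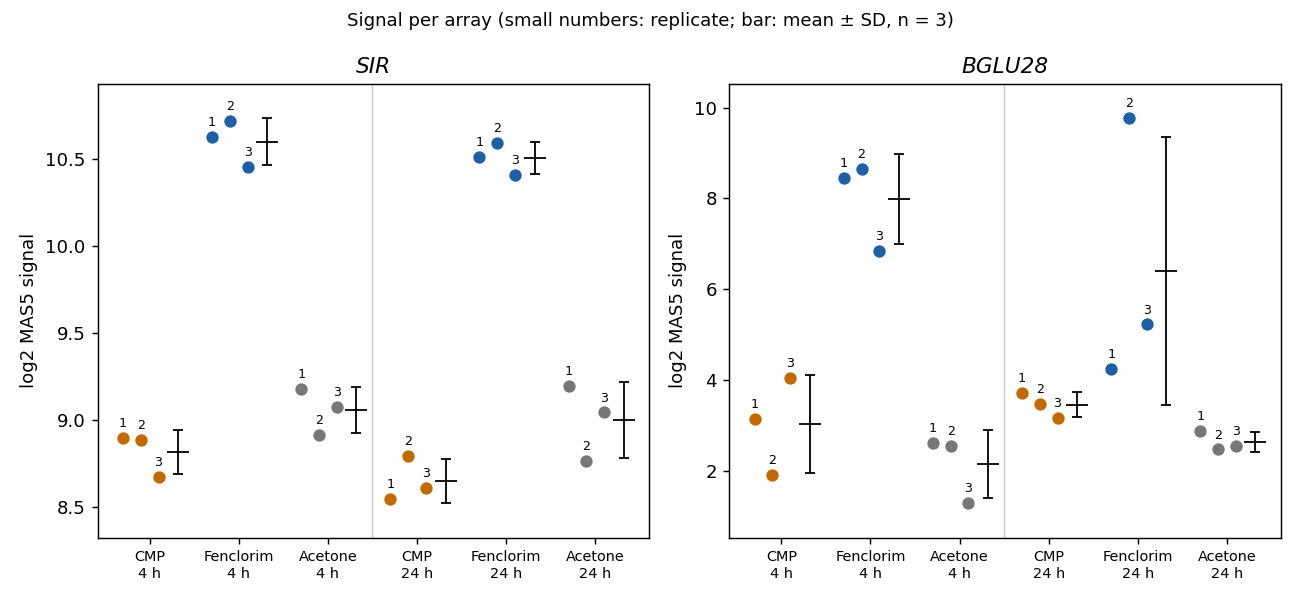
SIR (left) and BGLU28 (right) in every array, as log2 MAS5 signal on the vertical axis with the treatment and time on the horizontal axis. Points are arrays numbered by replicate, and the bar beside them is the mean ± SD of 3 arrays. SIR is near 10.5 in all fenclorim arrays and at most 9.20 elsewhere, while BGLU28 in fenclorim at 24 h has a mean of 6.41 and an SD of 2.95.

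SIR and BGLU28 share the property that all 6 fenclorim arrays exceeded all 12 others. It held for 167 of the 15278 tested probe sets, or 1.09%, of which 61 carried a gene name. For SIR the lowest fenclorim array was 1.21 on the log2 scale above the highest other array, a gap that 7 of the 167 reached, SIR included. For BGLU28 the gap was 0.19, which 79 of the 167 reached or passed. Over the 18 arrays the log2 signals of SIR and BGLU28 correlated at 0.824. The choice of both genes for high signals with fenclorim favours this correlation and the shared property above. After each array's group mean was taken off, the correlation was 0.207, so most of the likeness came from the differences between groups that the arrays share.

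To set SIR in its pathway, 80 loci of sulfate uptake, reduction, cysteine and glutathione synthesis, the sulfur shortage response and glucosinolate synthesis were listed. The annotation named 9 of them, and all 9 were tested. None of the 12 listed sulfate transporters was among the 9. After 4 h of fenclorim 2 of the 9 rose and 2 fell, and after 24 h 1 rose and 1 fell. Without fenclorim 4 h replicate 3, 4 rose at 4 h, and at 24 h 0 rose without fenclorim replicate 2 or 3 or acetone replicate 1 or 3, while 0 fell without fenclorim replicate 3. The balance also depended on the scaling. With each array centred on its median 4 rose and 1 fell at 4 h and 4 rose and 0 fell at 24 h, and with quantile normalization 0 rose and 0 fell at 24 h. Over all tested probe sets 14.4% rose and 25% fell at 4 h, and 14.1% rose and 27.7% fell at 24 h. The median difference of the 9 was 0.17 at 4 h and 0.02 at 24 h, against -0.23 and -0.24 over all tested probe sets.

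After 4 h of CMP 1 of the 9 rose and 4 fell, and the counts were the same at 24 h. The background was 13.8% higher and 23.3% lower at 4 h, and 17.3% higher and 25.7% lower at 24 h. The medians of the 9 were -0.45 and -0.44, against -0.25 and -0.13 over all tested probe sets. CMP against fenclorim had 0 of the 9 higher and 2 lower at 4 h, and 0 higher and 5 lower at 24 h by limma. At an unadjusted p under 0.05 the counts were 0 higher and 4 lower, then 0 higher and 5 lower. In that comparison 3.55% of all tested probe sets were higher and 3.77% lower at 4 h, and 17.2% were higher and 13.7% lower at 24 h. The 4 h count of 2 lower became 1 without CMP replicate 2 or 3 or fenclorim replicate 1 or 2, and 4 without fenclorim replicate 3. The 24 h count of 5 became 3 without any 1 CMP array or without fenclorim replicate 1.

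APS3, an ATP sulfurylase that activates sulfate upstream of SIR, fell with CMP and did not pass the test with fenclorim. Its signal at 4 h was 59.2, 42.03 and 44.5 with CMP, 138, 128 and 83.7 with fenclorim and 85.5, 95.9 and 83.5 with acetone. CMP minus acetone was -0.88 ± 0.21 at 4 h (limma adjusted p = 0.00354) and -0.98 ± 0.21 at 24 h (limma adjusted p = 0.00121). Fenclorim minus acetone was 0.37 ± 0.21 at 4 h (limma adjusted p = 0.172) and -0.25 ± 0.21 at 24 h (limma adjusted p = 0.349), and the 4 h value passed the threshold with median centring, at 0.71, and without fenclorim 4 h replicate 3, at 0.59. The sign at 24 h turned with centring, to 0.25. APS4, another ATP sulfurylase, and SIRB, an enzyme that inserts iron to make the siroheme of sulfite reductase, passed the test in no comparison with acetone. SIRB had a fenclorim difference of -0.12 ± 0.15 at 4 h, which centring turned to 0.22.

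GR1, a glutathione reductase that regenerates reduced glutathione, rose with both compounds. The GR1 signals at 4 h were 590, 414 and 564 with CMP, 994, 827 and 519 with fenclorim and 248, 241 and 249 with acetone. The differences were 1.07 ± 0.23 for CMP (limma adjusted p = 0.00178) and 1.61 ± 0.23 for fenclorim (limma adjusted p = 4.66e-05). At 24 h it was 0.78 ± 0.23 with CMP (limma adjusted p = 0.0118) and 0.65 ± 0.23 with fenclorim (limma adjusted p = 0.0348). The 24 h fenclorim call was lost when fenclorim 24 h replicate 2 or 3, or acetone 24 h replicate 1 or 3, was left out, at values of 0.42, 0.63, 0.56 and 0.65. The other glutathione reductase, listed as GR (AT3G54660), did not pass with fenclorim, at -0.28 ± 0.15 at 4 h and 0.02 ± 0.15 at 24 h. Median centring made the 24 h value 0.52, past the threshold (limma adjusted p = 0.0228), and the 4 h value passed without fenclorim 4 h replicate 3, at -0.41, or without acetone 4 h replicate 3, at -0.42. With CMP it fell by 0.70 at 4 h (limma adjusted p = 0.00147) and fell by 0.58 at 24 h (limma adjusted p = 0.00431), and the CMP calls were lost with median centring, at -0.41 and -0.31.

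AT1G04770, the named locus of the sulfur shortage list, rose at 4 h of fenclorim. At 4 h its signals were 111, 84.6 and 104.5 with CMP, 259, 258 and 196.5 with fenclorim and 132, 66.0 and 102 with acetone. At 24 h they were 115, 87.2 and 97.1 with CMP, 145, 362 and 131 with fenclorim and 124, 139 and 142.5 with acetone. Fenclorim 24 h replicate 2 was the high array, as for BGLU28. Fenclorim minus acetone was 1.297 ± 0.31 at 4 h (limma adjusted p = 0.00345) and 0.50 ± 0.31 at 24 h (limma adjusted p = 0.207). The 24 h value was 0.033 without fenclorim 24 h replicate 2, and median centring made it 0.99, past the threshold (limma adjusted p = 0.00696). CMP minus acetone was 0.05 ± 0.31 at 4 h (limma adjusted p = 0.917) and -0.44 ± 0.31 at 24 h (limma adjusted p = 0.27).

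Downstream of SIR, the methionine pathway gene CBL, cystathionine beta-lyase, fell with fenclorim at 4 h by 0.61 ± 0.12 (limma adjusted p = 0.001) and with CMP at 4 h by 0.85 ± 0.12 (limma adjusted p = 5.06e-05). At 24 h it was 0.03 ± 0.12 with fenclorim (limma adjusted p = 0.881) and -0.46 ± 0.12 with CMP (limma adjusted p = 0.00645). Median centring ended the fenclorim call of CBL at 4 h, at -0.27, and the CMP call at 24 h, at -0.19, and made the fenclorim value at 24 h 0.52, past the threshold. Of the glucosinolate list, the glucosyltransferase UGT74B1 passed the test in no comparison with acetone on the deposited scaling with all arrays. Its fenclorim difference at 4 h was 0.36 ± 0.28, and it passed with median centring, at 0.70 (limma adjusted p = 0.0446), and without fenclorim 4 h replicate 3, at 0.71 (limma adjusted p = 0.0309). The locus AT2G31790 fell at 4 h with CMP by 1.45 ± 0.21 (limma adjusted p = 3.9e-05) and with fenclorim by 1.15 ± 0.21 (limma adjusted p = 0.00033). It was called lower at 24 h with both compounds too. Leaving out 1 array gave 24 h values of -1.44 to -1.34 with CMP and -0.89 to -0.60 with fenclorim. That fenclorim call was lost in 1 of those 18 fits, and also with median centring and with quantile normalization. Its signals at 4 h were 52.7, 31.4 and 40.01 with CMP, 58.3, 40.3 and 51.6 with fenclorim and 105, 115 and 111 with acetone, so both compounds lay under the solvent, unlike SIR and BGLU28.

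None of the 9 genes had a fenclorim or CMP difference that changed between 4 h and 24 h by limma. At an unadjusted p under 0.05 there was 1 higher and 1 lower for fenclorim, and 1 higher and 0 lower for CMP. For fenclorim, 1 was lower without 4 h replicate 3, 1 higher and 2 lower without 24 h replicate 2, and 1 higher and 4 lower without both arrays. Over all tested probe sets the change passed in 2.74% for fenclorim and 3.04% for CMP.

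**Figure D3:**
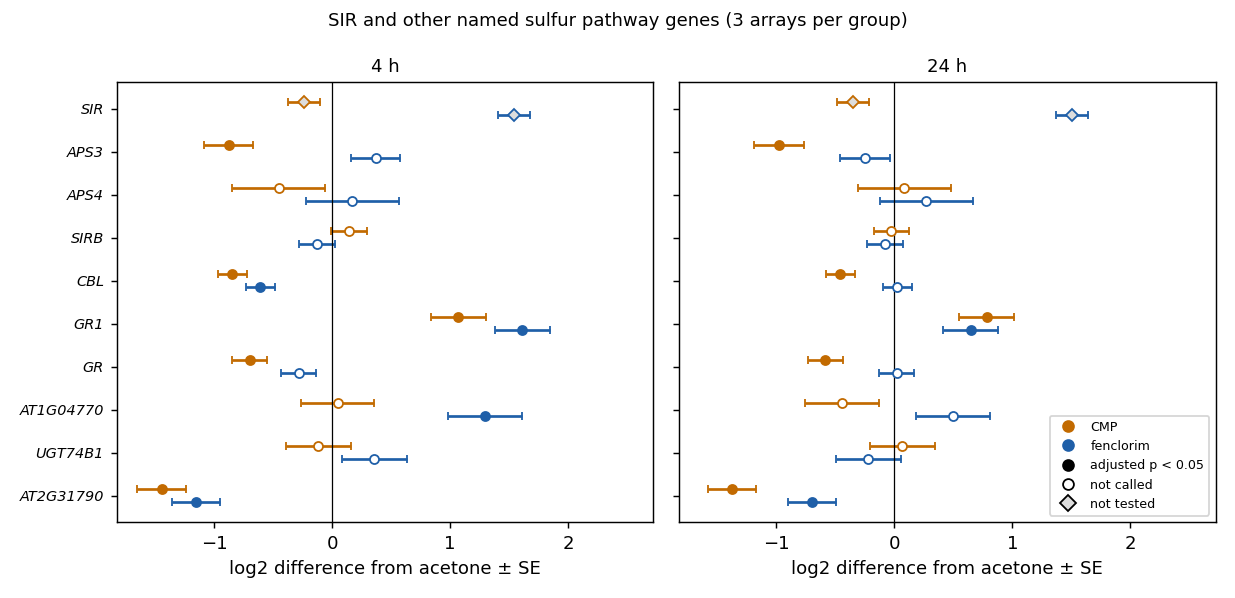
Differences of mean log2 signal from acetone ± SE at 4 h (left) and 24 h (right) for SIR and the 9 named sulfur pathway genes, with 3 arrays per group. Filled points passed limma's adjusted p of 0.05, open points did not, and the diamonds of SIR were not tested. SIR lies at 1.54 and 1.50 with fenclorim while APS3, which acts upstream, lies at 0.37 and -0.25.

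BGLU28 belongs to a large gene family, of which 20 other members were named on the array and 11 were bright enough to be tested. With fenclorim 2 of the 11 rose and 4 fell at 4 h, and 1 rose and 5 fell at 24 h. With CMP 1 rose and 2 fell at 4 h, and 3 rose and 3 fell at 24 h. Over all tested probe sets, the shares that rose and fell with fenclorim were 14.4% and 25% at 4 h and 14.1% and 27.7% at 24 h, and with CMP 13.8% and 23.3%, then 17.3% and 25.7%. With each array centred on its median, the family counts with fenclorim were 4 higher and 2 lower at 4 h and 3 lower at 24 h, and with CMP 2 higher and 1 lower, then 5 higher and 1 lower. The fenclorim counts at 4 h became 0 or 1 higher when fenclorim replicate 1 or 2 or acetone replicate 1 or 2 was left out, and 2 lower without fenclorim replicate 2 or acetone replicate 1. At 24 h 3 fell without fenclorim replicate 3 or acetone replicate 1 or 3. BGLU44 lost its call at 4 h of fenclorim without fenclorim 4 h replicate 3, at -0.70 (limma adjusted p = 0.0604). BGLU46 gained a call at 24 h of fenclorim without fenclorim 24 h replicate 2, at -2.18 (limma adjusted p = 0.0151). Without both arrays BGLU45 gained a call at 4 h of fenclorim, at 1.08 (limma adjusted p = 0.0486). For CMP at 4 h 0 rose without CMP replicate 1 or 3 or acetone replicate 2 or 3, and 1 fell without CMP replicate 1 or acetone replicate 1 or 3. The median difference of the 11 with fenclorim was -0.03 at 4 h and -0.56 at 24 h, beside -0.23 and -0.24 over all tested probe sets. For CMP it was -0.31 and 0.35 at those times, beside -0.25 and -0.13 over all tested probe sets. CMP against fenclorim had 2 higher and 1 lower at 4 h, and 6 higher and 0 lower at 24 h by limma, where 1 was lower at an unadjusted p under 0.05. The 2 higher at 4 h became 0 or 1 without CMP replicate 1 or 3 or any 1 fenclorim array, the 1 lower at 4 h became 2 without CMP 24 h replicate 1 or 2, and the 0 lower at 24 h became 1 without CMP 24 h replicate 1. Of all tested probe sets 3.55% were higher and 3.77% lower at 4 h, and 17.2% higher and 13.7% lower at 24 h.

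The genes beside BGLU28 on chromosome 2, in the RefSeq order of TAIR10.1, are BGLU15 and BGLU29, both of its family. BGLU15 had signals at 4 h of 70.0, 76.6 and 79.7 with CMP, 206, 184 and 152.5 with fenclorim and 112, 93.7 and 151 with acetone. At 24 h its signals were 77.7, 66.4 and 83.8 with CMP, 75.4, 111 and 106 with fenclorim and 115, 123 and 95.7 with acetone. At 4 h BGLU15 was thus highest with fenclorim, but by far less than BGLU28. Fenclorim minus acetone was 0.62 ± 0.20 at 4 h (limma adjusted p = 0.0207) and -0.20 ± 0.20 at 24 h (limma adjusted p = 0.43). The 4 h call was lost when fenclorim 4 h replicate 1 or 2, or acetone 4 h replicate 1 or 2, was left out, at 0.52, 0.60, 0.59 and 0.46. With CMP, BGLU15 fell at 4 h, at -0.63 ± 0.20 (limma adjusted p = 0.0202), and at 24 h, at -0.55 ± 0.20 (limma adjusted p = 0.0349). Leaving out 1 array lost these calls in 2 and 4 of 18 fits. CMP minus fenclorim was -1.25 ± 0.20 at 4 h (limma adjusted p = 0.000924) and -0.35 ± 0.20 at 24 h (limma adjusted p = 0.195).

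BGLU29, on the other side of BGLU28, had signals of 0.181 to 5.46 over all 18 arrays and was too dim to be tested. PEN2, a myrosinase of immune defence, and BGLU17 lie nearby and were not named alone by a probe set. AT2G44430, 3 places from BGLU28, was bright enough to be tested. Its mean signals were 27.4 with CMP, 20.2 with fenclorim and 16.9 with acetone at 4 h, and 33.1, 15.2 and 17.9 at 24 h. It was above the filter level in 0 acetone arrays at 4 h and 1 at 24 h. Of the genes within 3 places of SIR on chromosome 5, AT5G04550, DME and AT5G04600 were tested, and none passed against acetone. DME encodes a DNA glycosylase that removes methylated cytosine. Whether SIR differs from these neighbours was not tested.

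BGLU27 was the other family member that rose at 4 h of fenclorim, by 2.28 ± 0.65 (limma adjusted p = 0.0106), with dim signals of 27.2, 7.53 and 10.5 with fenclorim against 2.29, 1.42 and 5.75 with acetone. That call was lost without fenclorim 4 h replicate 1, at 1.75, and without acetone 4 h replicate 2, at 1.83. With CMP it rose at 24 h, by 2.77 ± 0.65 (limma adjusted p = 0.00242), with signals of 22.3, 45.6 and 26.8 with CMP against 4.14, 4.21 and 4.91 with acetone. BGLU27 lay above the filter level in those 3 CMP arrays and in 1 other array, fenclorim 4 h replicate 1, so it entered the tested set through the arrays in which it is high, and its folds rest on acetone signals under that level. BGLU45, of a group linked to lignin precursors, also rose at 24 h of CMP, with signals of 68.0, 113 and 87.3 with CMP, 4.47, 26.1 and 8.05 with fenclorim and 7.32, 12.0 and 8.29 with acetone. Its CMP minus acetone difference was 3.28 ± 0.61 (limma adjusted p = 0.000352). None of its 24 h acetone arrays lay above the filter level.

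BGLU33 and BGLU40 fell with fenclorim at both times. BGLU33 had 41.5, 18.3 and 40.9 with CMP, 18.5, 14.0 and 11.1 with fenclorim and 37.7, 44.6 and 34.9 with acetone at 4 h. It was above the filter level in 1 fenclorim array at 4 h and 2 at 24 h, so the size of its fall rests on signals near that level. Its fenclorim differences were -1.45 ± 0.31 at 4 h (limma adjusted p = 0.00136) and -1.69 ± 0.31 at 24 h (limma adjusted p = 0.000496). Those of BGLU40 were -1.43 ± 0.33 (limma adjusted p = 0.0027) and -1.61 ± 0.33 (limma adjusted p = 0.00135), and the 24 h value was -2.105 without fenclorim 24 h replicate 2. BGLU40 also fell with CMP at 4 h, at -1.13 ± 0.33 (limma adjusted p = 0.0131), a call lost in 1 of 18 fits leaving out 1 array. Its CMP difference at 24 h was -0.81 ± 0.33 (limma adjusted p = 0.0591). CMP minus fenclorim of BGLU40 was called at neither time. BGLU33 did not pass with CMP, at -0.31 ± 0.31 and -0.33 ± 0.31. BGLU42 fell with fenclorim at 4 h, at -0.75 ± 0.23 (limma adjusted p = 0.0177), and at 24 h, at -1.15 ± 0.23 (limma adjusted p = 0.00115). The 4 h call was lost in 2 of 18 fits leaving out 1 array. With CMP it was -0.59 ± 0.23 at 4 h (limma adjusted p = 0.0574) and -0.93 ± 0.23 at 24 h (limma adjusted p = 0.00394). PYK10 rose at 24 h of fenclorim by 0.83 ± 0.16 (limma adjusted p = 0.00104). No family member among the 11 had a called change of its fenclorim or CMP difference between the times by limma, with 3 lower for fenclorim and 2 higher for CMP at an unadjusted p under 0.05. For fenclorim, 3 were lower without 24 h replicate 2 and 5 without that array and 4 h replicate 3.

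**Figure D4:**
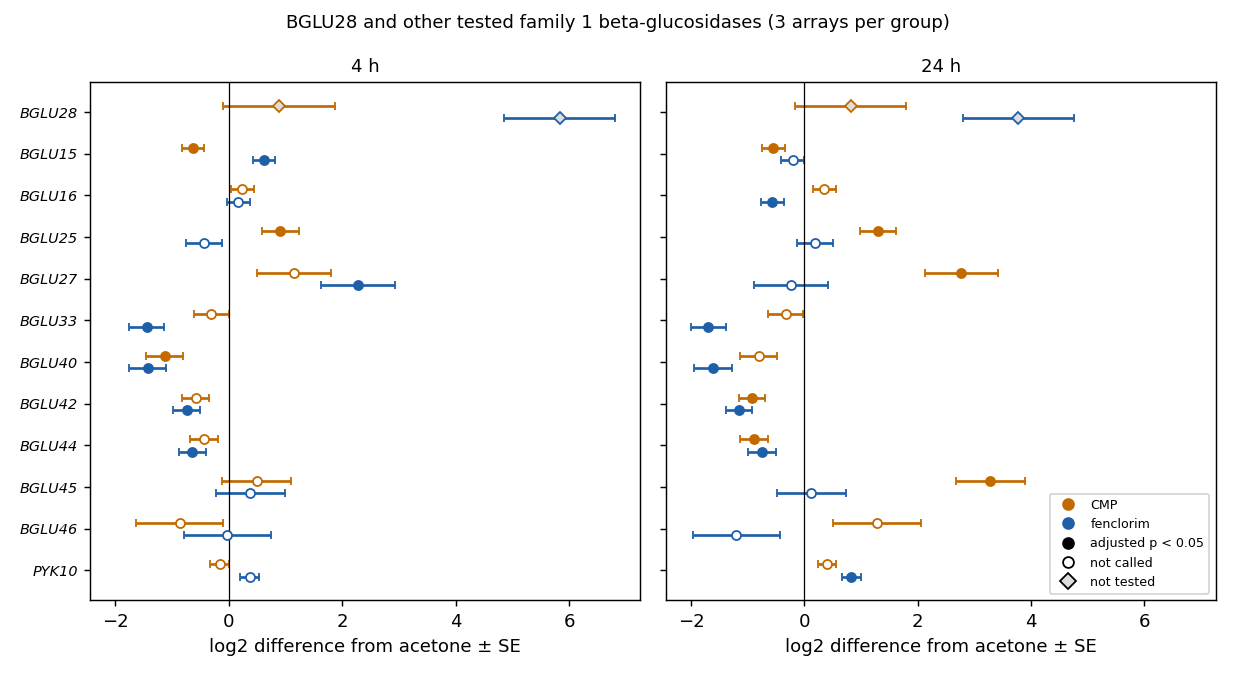
Differences of mean log2 signal from acetone ± SE at 4 h (left) and 24 h (right) for BGLU28 and the 11 other tested family 1 beta-glucosidases, with 3 arrays per group. Filled points passed limma's adjusted p of 0.05, open points did not, and the diamonds of BGLU28 were not tested. BGLU28 lies at 5.83 and 3.78 with fenclorim, while at 24 h of CMP BGLU45 lies at 3.28 and BGLU27 at 2.77.

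The named genes whose log2 signals ran most like those of SIR over the 18 arrays were HISN5B (r = 0.954), AT1G75280 (0.939), AT5G66985 (0.893), AT2G19310 (0.890), AT4G36680 (0.885) and AT2G25970 (0.878). All 6 of them had every fenclorim array above every other array, beside 1.09% of all tested probe sets. The choice by correlation with SIR favours this. HISN5B, an enzyme of histidine synthesis, had 53.1, 62.0 and 59.2 with CMP, 107, 110 and 116 with fenclorim and 67.0, 45.5 and 53.4 with acetone at 4 h. At 24 h HISN5B had 50.3, 58.4 and 46.6 with CMP, 130, 112 and 110.0 with fenclorim and 63.4, 48.0 and 71.8 with acetone. Like SIR, it was nearly level over the fenclorim arrays. With the group means taken off, its r with SIR was 0.578.

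The genes most like BGLU28 were AT1G10990 (r = 0.901), AT1G75280 (0.887), AT4G19880 (0.883), AT4G33040 (0.879), AT1G04770 (0.877) and AT2G31390 (0.876). In all 6, fenclorim 24 h replicate 2 was the highest array of its group, as in BGLU28, which the choice by correlation with BGLU28 favours. SIR had the same highest array, as did 2 of the 6 genes most like it and 43.5% of all tested probe sets. Only 1 of the 6, AT1G75280, had all fenclorim arrays above all others. AT4G19880 followed BGLU28 most closely within groups, at 0.847, with 1281, 3581 and 1609 in the 24 h fenclorim arrays. Its CMP signals at 4 h, 2028, 1151 and 1679, also lay above its acetone signals of 592, 414 and 548, which BGLU28 did not show without overlap.

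AT1G75280 stood in both lists. At 4 h its signals were 273, 217 and 168 with CMP, 1318, 1603 and 1471 with fenclorim and 132, 188 and 248 with acetone. At 24 h they were 169, 99.96 and 135 with CMP, 614, 2565 and 921 with fenclorim and 231, 142 and 147 with acetone. All its fenclorim arrays lay above all others, and fenclorim 24 h replicate 2 was the highest. Among 8247 named probe sets ranked by likeness, BGLU28 was at place 27 for SIR and SIR at place 25 for BGLU28. Both genes were chosen for high signals with fenclorim in these same arrays, which favours such places. These correlations describe 18 arrays that share 6 groups.

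**Figure D5:**
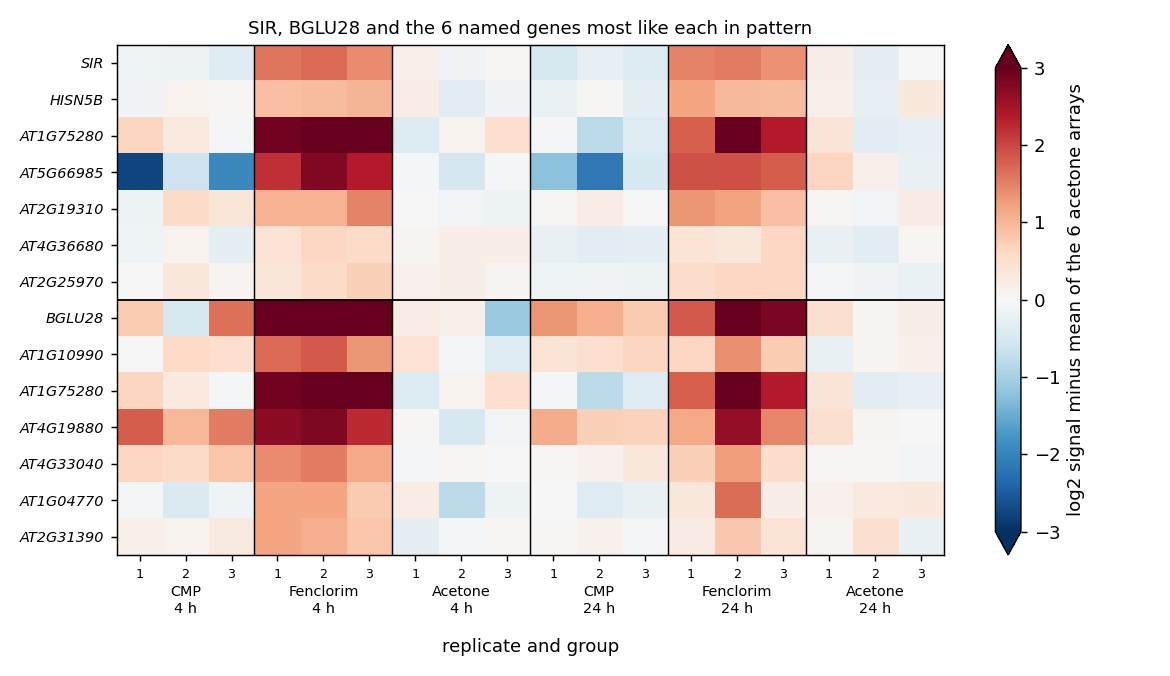
SIR, BGLU28 and the 6 named genes most like each over the 18 arrays, as log2 signal minus the gene's mean over the 6 acetone arrays, with values beyond 3 in either direction at the darkest colour. Rows are genes and columns are replicates by treatment and time. SIR and HISN5B are evenly red over the fenclorim arrays, while AT1G75280, which stands in both blocks, has its highest signal, 2565, in replicate 2 of fenclorim at 24 h, as BGLU28 does with 870.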

How the data were processed

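Transcript levels came from 18 Affymetrix ATH1 arrays, and samples were grouped by their labels. The authors deposited linear intensity signals made with MAS5 in GCOS, per the submitters' processing notes, which name no versions. After trimming 2% at either end, each array averaged 100. Background-corrected low signals are imprecise, and the number of arrays limits precision. The table held 22810 probe sets, of which 64 controls were left out. Of the other 22746, 13513 were named with 1 gene by the platform annotation, 503 with several and 8730 were not listed. RefSeq entries of TAIR10.1 matched 13436 of them by gene identifier. That table gave the loci by which listed genes and markers were found, and the chromosome neighbours. Beta-glucosidases were also found by symbol. No coordinates or sequences are printed.

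Signals were taken to log2. Probe sets above the 40th percentile of their array in at least 3 arrays were tested, 15278 in all. limma 3.58.1 in R 4.3.3 fitted 1 mean per group over the 18 arrays with an intensity trend. Benjamini-Hochberg adjustment ran over all tested probe sets, and adjusted p-values were called under 0.05, and intervals are at the 95% level. The code was tested on simulated data. Tables were made in Python 3.11.15 with pandas 2.3.3 and numpy 2.4.6, and figures with matplotlib 3.10.9. SIR, BGLU28 and the gene lists were chosen with earlier results of these data known. Genes named by list were the largest called members and set members by value. Some smaller members were named too, as neighbours, as markers or where leaving out arrays changed a call. A gene with several probe sets was represented by the brightest. The 6 most alike named genes were ranked by Pearson's r. Alternatives changed the scaling, offset, filter, variance trend, arrays in the fit and replicate number. Same-numbered arrays of different groups deviated from their group means with correlations of -0.508 to 0.484 (median -0.06). For different-numbered arrays the correlations were -0.631 to 0.48 (median 0.02). The arrays were therefore fitted as unpaired, but such spread-out correlations cannot exclude that a number marks a shared culture.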

Additional observations from a re-analysis of the deposited data

Results flagged for a closer look

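SIR at 4 h was picked out because every fenclorim array lay above every acetone array while every CMP array lay below them. CMP minus acetone was -0.24 and fenclorim minus acetone 1.54. That the compounds moved SIR in opposite directions was not tested, and with arrays centred on their medians CMP minus acetone was 0.05.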

How the results depend on the processing

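Of 368 recomputed SIR and BGLU28 differences, 353 moved by less than the spread between replicates. Many of them could not move, so that count does not measure how robust the differences are. Leaving out an array of a group outside the difference leaves it unchanged, as does a replicate block in this balanced design. For BGLU28 the spread also includes that of fenclorim at 24 h, with a log2 SD of 2.95. The sign changed in 12, of which 5 were the SIR change of the fenclorim effect between times and 6 the BGLU28 change of the CMP effect, both near 0, and 1 was SIR with CMP at 4 h. With arrays centred on their medians, SIR fenclorim minus acetone was 1.88 at 4 h and 2.00 at 24 h, CMP minus acetone 0.053 at 4 h (reversed) and -0.081 at 24 h, CMP minus fenclorim -2.08 at 24 h, and the change of the fenclorim effect 0.11. Quantile normalization gave 1.28 for SIR with fenclorim at 24 h. With the offset, BGLU28 was 3.71 for fenclorim minus acetone and -3.43 for CMP minus fenclorim at 4 h. Centring moved the median of all tested probe sets with fenclorim at 4 h to 0.11, against -0.23 on the deposited scaling. The share of called probe sets that were higher was then 66.4%, against 36.5%. These shares of calls were 74.6% against 33.8% at 24 h, and for CMP 65.1% against 37.2% and 61.4% against 40.2%. For CMP minus fenclorim at 24 h it was 35.6% against 55.7%. Quantile normalization gave 47.2% and 50.9% of calls higher with fenclorim at 4 h and 24 h.

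Leaving out 1 array gave BGLU28 values of 2.097 to 4.86 for fenclorim minus acetone at 24 h, -4.04 to -1.28 for CMP minus fenclorim at 24 h and -3.74 to -0.97 for the change of the fenclorim effect. Without both unusual fenclorim arrays together, an alternative chosen after seeing the data, these were 2.097, -1.28 and -4.31.

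Counts of the 9 sulfur genes with fenclorim were 4 higher and 1 lower at 4 h and 4 higher and 0 lower at 24 h under centring, which left 2 lower with CMP at 24 h. At 24 h of fenclorim they were 0 higher and 0 lower under quantile normalization and with only the compared groups, which also left 1 lower for CMP minus fenclorim. The stricter filter gave 1 higher for the change of the fenclorim effect. Without both arrays there were 4 higher with fenclorim at 4 h, 0 higher at 24 h, 4 lower for CMP minus fenclorim at 4 h, and 1 higher and 4 lower for the change of the fenclorim effect. Leaving out 1 array gave 2 to 4 higher with fenclorim at 4 h, 0 to 1 higher and 0 to 1 lower at 24 h, 1 to 4 lower for CMP minus fenclorim at 4 h and 3 to 5 at 24 h, and 0 to 1 higher and 0 to 2 lower for the change of the fenclorim effect.

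Counts of the 11 beta-glucosidases under centring were 4 higher and 2 lower with fenclorim at 4 h, 3 lower at 24 h, 2 higher and 1 lower with CMP at 4 h, 5 higher and 1 lower at 24 h, and 2 lower for CMP minus fenclorim at 24 h. Quantile normalization gave 2 lower for CMP minus fenclorim at 4 h, and the offset 1 higher for the change of the CMP effect. The stricter filter gave 1 higher with fenclorim at 4 h, 1 higher for CMP minus fenclorim at 4 h and 1 lower at 24 h. Only the compared groups gave 1 higher with fenclorim at 4 h, 3 lower at 24 h, 5 higher with CMP at 24 h, 1 higher for CMP minus fenclorim at 4 h and 2 higher for the change of the CMP effect. Without both arrays there were 1 higher and 2 lower for CMP minus fenclorim at 4 h, 5 lower for the change of the fenclorim effect and 2 higher for that of CMP. Leaving out 1 array gave 0 to 2 higher and 2 to 4 lower with fenclorim at 4 h, 3 to 6 lower at 24 h, 0 to 1 higher and 1 to 3 lower with CMP at 4 h, 0 to 2 higher and 1 to 2 lower for CMP minus fenclorim at 4 h, 0 to 1 lower at 24 h, 0 to 3 lower for the change of the fenclorim effect and 0 to 1 higher for that of CMP.

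Each group holds every replicate number once, so a replicate block cannot change a difference of group means. SIR fenclorim minus acetone at 1.54 and BGLU28 at 5.83 at 4 h were therefore bound to stay. Only calls could move, and no list count moved by over 1.5 times. Whether the numbers pair the arrays is not known. The planned search of promoters and proteins for motifs was not run. The cause of these changes was not tested. BGLU28 folds are limited by signals near background with CMP and acetone.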
